A study of Mus musculus with 20 samples.

Results

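The 9 genes described here encode core parts of the JAK-STAT cytokine pathway and were chosen by name: the transcription factors Stat3, Stat5a, Stat5b and Stat6, the kinase Jak2, and the feedback inhibitors Socs1, Socs2, Socs3 and Cish. The array carried 16 probes with these gene names among 41174 probes other than controls, and each gene was read from its brightest probe. All 16 probes were well above background on all 20 arrays and none was saturated, and all 9 genes entered the test, which covered 32456 probes. Every array held the RNA (500 ng, labelled with Cy3) of 1 uterus from an ovariectomized C57bl6/J female of 10 weeks or older, left to rest for 10–14 days after surgery and then given 1 subcutaneous injection in sesame oil (100 µl). The 7 groups were the oil vehicle (3 arrays, labelled 24 h), estradiol (E2, 250 ng) collected after 2 h (3 arrays) and after 24 h (2 arrays, replicates 2 and 3), bisphenol A (BPA, 750 µg) at both times (3 arrays each) and the methoxychlor metabolite HPTE (750 µg) at both times (3 arrays each). The same 3 vehicle arrays were the reference at both times, so all comparisons with vehicle share them, and a part of a 2 h change that belongs to handling or time after injection cannot be told apart from the compound. Ovariectomy removes the main source of ovarian hormone that the host would otherwise add. BPA and HPTE were given at the same dose and differ on the carbon that bridges the phenols, which carries a pair of methyl groups in BPA and a trichloromethyl group in HPTE. E2 was given at a lower dose, so its values stand beside those of the other compounds at unequal doses.

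In this pathway a cytokine or growth hormone brings receptor chains together, the bound Janus kinases (JAKs) phosphorylate the receptor and a STAT protein, and the STAT dimer enters the nucleus and activates genes. The suppressors of cytokine signalling (SOCS) and CISH are among the genes that STATs switch on, and the proteins then block the kinase or the receptor, which closes a feedback loop. In the uterus, STAT3 acts downstream of leukemia inhibitory factor at implantation, and STAT5 proteins carry prolactin and growth hormone signals. An array measures transcripts, so the values below are transcript levels of these genes and not the phosphorylation of their proteins.

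Windows upstream of 3 inhibitor genes are shown because they hold, or lack, the sequence that STAT dimers bind. Promoters (250 bases before the start of a transcript and 50 from it, 300 in all) came from RefSeq on GRCm38.p6. They matched 8 of the 9 genes with 10 promoters, and Socs2 had no entry in the table. The STAT site was searched on both strands as TTCNNNGAA, and capitals mark each match. Socs3 held TTCTTAGAA at bases -154 to -146 from the start (window chr11:117969367-117969616, minus strand, which lies inside the annotated span of the gene). Cish held TTCCTGGAA at bases 0 to 8 and TTCTTGGAA at bases 11 to 19 (window chr9:107296459-107296688, plus strand), base 0 being the first of the transcript. The Socs1 window, chr16:10785537-10785786 on the minus strand, held none.
Socs3: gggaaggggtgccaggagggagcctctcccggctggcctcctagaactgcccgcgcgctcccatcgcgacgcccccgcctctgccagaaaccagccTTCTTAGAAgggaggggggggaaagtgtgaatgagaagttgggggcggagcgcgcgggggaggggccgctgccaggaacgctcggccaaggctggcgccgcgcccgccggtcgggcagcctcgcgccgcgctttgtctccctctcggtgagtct
Cish: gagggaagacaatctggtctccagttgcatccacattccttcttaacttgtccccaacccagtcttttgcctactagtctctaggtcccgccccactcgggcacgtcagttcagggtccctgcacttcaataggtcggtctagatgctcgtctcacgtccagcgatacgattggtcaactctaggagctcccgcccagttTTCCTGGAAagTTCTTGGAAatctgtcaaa
Socs1: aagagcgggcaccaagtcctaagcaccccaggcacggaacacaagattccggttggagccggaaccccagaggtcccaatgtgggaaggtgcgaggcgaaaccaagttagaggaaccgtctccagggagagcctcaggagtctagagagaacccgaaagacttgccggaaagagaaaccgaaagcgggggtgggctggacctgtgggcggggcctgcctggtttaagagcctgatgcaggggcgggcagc

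The STAT site was in the promoters of 2 of these genes and in none of the other 6 with an entry, and 8.30% of all 32851 promoters of the same length held it. The site type with 4 bases in the spacer, which STAT6 prefers, was in 6.95% of all promoters, the full estrogen response element in 0.0700% and the AP-1 site (TGANTCA) in 7.81%, and none of the 10 promoters of the 8 genes held any of these. A match is a run of letters in a window of 300 bases, and binding was not measured on these arrays. Imperfect sites and sites outside the window were not searched. The paper on this study states that its authors had earlier found an estrogen response element in the Stat5a promoter. Where that element lies was not compared with these windows.

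Stat5b, Stat5a and Stat3 are neighbours on chromosome 11 (bases 100780731 to 100859004, 100859351 to 100885169 and 100886806 to 100939594 of GRCm38.p6), and Socs3 lies on the same chromosome at 117966079 to 117970336. Stat6 (127642955 to 127660987) and Socs2 (95383903 to 95417321) lie on chromosome 10, Cish on chromosome 9 (107296659 to 107302784), Socs1 on chromosome 16 (10783808 to 10785536) and Jak2 on chromosome 19 (29251803 to 29313095).

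Levels are log2 units relative to the 75th percentile of the probes on each array, so 0 is the 75th percentile of that array and 1 unit is a doubling. A level is comparable between arrays for 1 probe and not between probes. Changes are differences of group means on this scale with the standard error (SE) of the limma fit over all 20 arrays, and a change was called at an adjusted p under 0.05 (Benjamini-Hochberg over the 32456 probes). With 2 or 3 uteri in a group, a difference that missed the threshold was not shown to be absent.

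After 2 h, transcripts of the inhibitors Socs1, Socs3 and Socs2 and of the transcription factor Stat5a increased with all 3 compounds, and no member decreased. Socs1 and Socs3 moved most, by 5.41- to 9.64-fold and 6.74- to 10.1-fold, Stat5a by 2.85- to 4.82-fold and Socs2 by 1.75- to 2.69-fold. E2 raised 6 of the 9 genes and BPA 6 of 9, against 28.1% and 49.4% of all probes called in either direction and 11.1% and 19.3% called higher. HPTE raised 7 of 9, against 48.1% in either direction and 19.9% higher. Lower calls made up 17.0%, 30.2% and 28.2% of all probes in the same order. The median change over the 9 genes was 0.44 with E2, 0.53 with BPA and 0.73 with HPTE, beside -0.06, -0.10 and -0.09 over all probes tested. After 24 h, E2 left 3 of 9 called (2 higher and 1 lower, against 63.8% of all probes, 26.3% higher and 37.6% lower). BPA and HPTE left 0 of 9 called in limma at 24 h, and 0 of 9 at an unadjusted p under 0.05 for either compound, against 13.1% and 34.0% of all probes by adjusted p and 27.7% and 43.8% by unadjusted p. The calls over all probes at 24 h split into 5.09% higher and 8.03% lower with BPA and 14.9% higher and 19.1% lower with HPTE.

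**Figure D1:**
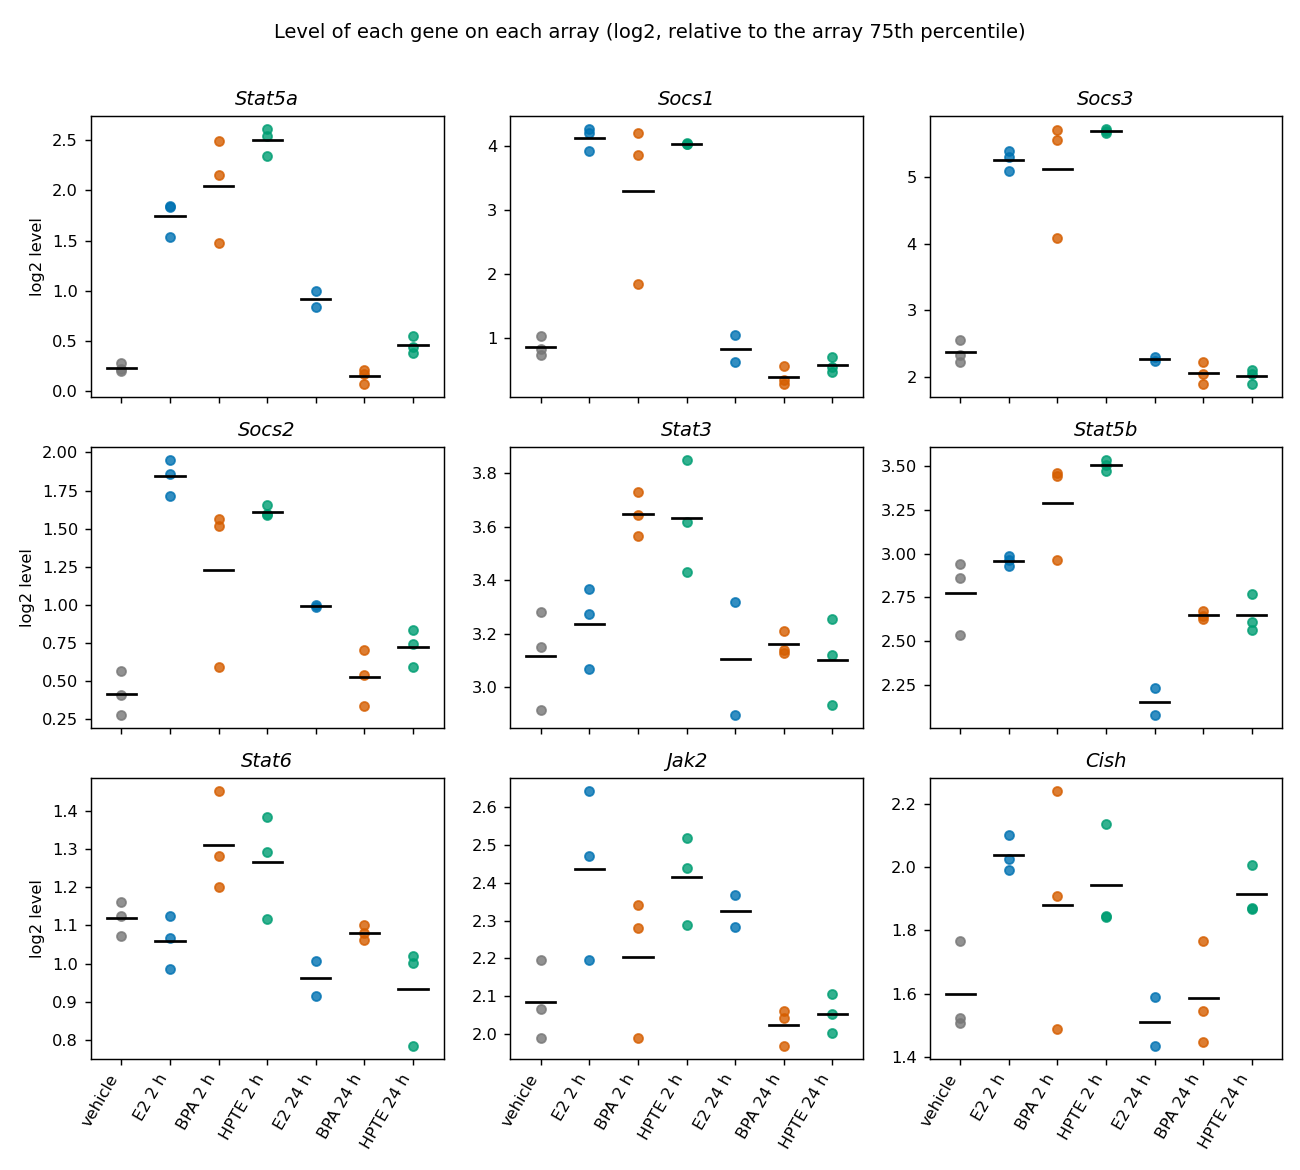
Level of each of the 9 genes (log2 relative to the 75th percentile of the array, vertical axis) in the 7 groups (horizontal axis), with 1 point per array and a bar at the group mean. Socs1, Socs3, Socs2 and Stat5a stand above vehicle in the 2 h groups, and BPA 2 h replicate 3 is the lowest point of its group for each of these.

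Facts of the arrays touch these values. Signals at the 75th percentile ran from 1320 to 2046 intensity units, 72.7% to 81.3% of probes were well above background, arrays of 1 group correlated at r of 0.975 to 0.993 over probes, and no 2 arrays were identical. Transcripts of the uterine markers Esr1, Pgr, Hoxa10 and Hoxa11 were well above background on all arrays. Slides (6) and scan days (2) were also followed, and each call against vehicle kept its direction between arrays of the same slide. This held in 6 of 6 such differences for E2 2 h, 12 of 12 for BPA 2 h, 14 of 14 for HPTE 2 h and 3 of 3 for E2 24 h. These differences are counted over genes and are not replicates. They rest on E2 2 h replicate 2, BPA 2 h replicates 1 and 3, HPTE 2 h replicates 2 and 3 and E2 24 h replicate 3. Only these had a vehicle array on their slide, and the same arrays entered the calls. Some arrays stood apart. BPA 2 h replicate 3 had lower levels of Socs1, Socs3, Socs2, Stat5a and Stat5b than the other 2 arrays of that group and correlated with them at 0.979 and 0.982, beside 0.990 between those. Summed levels of 4 pancreas markers (in multiples of the 75th percentile) were 979.9 and 55.4 on E2 2 h replicates 2 and 3 and 1.71 and 4.22 on the E2 24 h arrays, beside 0.156 to 0.402 on the other arrays, and all 5 sperm cell markers were lower than vehicle in all 6 comparisons (summed level 30.0 to 98.4 on vehicle arrays and 0.305 to 12.2 on the others). The part of these transcripts in the results was not tested, except that values without the array concerned are given below. In RNA of whole uterus, fewer cells of a type and less RNA per cell cannot be told apart.

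Socs1 encodes an inhibitor that binds the JAK catalytic domain and acts strongly on interferon signals. Its levels were 1.02, 0.74 and 0.83 on the vehicle arrays and 4.26, 3.92 and 4.20 on the E2 2 h arrays. On the BPA 2 h arrays they were 3.85, 4.20 and 1.84, and on the HPTE 2 h arrays 4.03, 4.04 and 4.02. Every array at 2 h lay above every vehicle array, and the third BPA array lay between vehicle and the others. At 24 h the levels were 0.61 and 1.04 with E2, 0.33, 0.56 and 0.27 with BPA and 0.53, 0.47 and 0.70 with HPTE. All BPA and HPTE arrays at 24 h were below the lowest vehicle array, while those of E2 overlapped vehicle. The 2 h change was 3.27 (SE 0.40, adjusted p = 2.35e-05) with E2, 2.43 (SE 0.40, adjusted p = 0.000157) with BPA and 3.17 (SE 0.40, adjusted p = 1.23e-05) with HPTE. The 24 h changes of -0.03, -0.47 and -0.29 did not pass (adjusted p = 0.954, 0.479 and 0.614). Without BPA 2 h replicate 3 the BPA change at 2 h was 3.16.

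Socs3 encodes the inhibitor that binds the gp130 receptor chain and limits STAT3. Vehicle levels were 2.55, 2.23 and 2.32. At 2 h they were 5.10, 5.30 and 5.39 with E2, 5.56, 5.71 and 4.09 with BPA and 5.69, 5.67 and 5.73 with HPTE. All arrays at 2 h again lay above vehicle, and the HPTE arrays lay within 0.1 of each other. At 24 h the levels were 2.23 and 2.30 with E2, 2.22, 2.04 and 1.89 with BPA and 2.09, 1.90 and 2.03 with HPTE. The 2 h change was 2.90 with E2 (SE 0.29, adjusted p = 3.94e-06), 2.75 with BPA (SE 0.29, adjusted p = 2.86e-06) and 3.33 with HPTE (SE 0.29, adjusted p = 4.14e-07). Without BPA 2 h replicate 3 the BPA change was 3.27. At 24 h the changes of -0.10, -0.32 and -0.36 did not pass, though each BPA and HPTE array lay below each vehicle array.

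Socs2 encodes the inhibitor best known for limiting growth hormone signalling. Vehicle levels were 0.41, 0.57 and 0.28. At 2 h they were 1.72, 1.86 and 1.95 with E2, 1.52, 1.57 and 0.60 with BPA and 1.59, 1.65 and 1.59 with HPTE, all above vehicle, with the third BPA array only just so. At 24 h they were 1.001 and 0.985 with E2, 0.34, 0.70 and 0.54 with BPA and 0.59, 0.75 and 0.84 with HPTE. The 2 h change was 1.43 with E2 (SE 0.19, adjusted p = 5.43e-05), 0.81 with BPA (SE 0.19, adjusted p = 0.0026) and 1.19 with HPTE (SE 0.19, adjusted p = 0.000105). The BPA change was 1.12 without replicate 3. It missed the threshold when arrays were centred on spike-in controls (0.90, adjusted p = 0.0604) or when only BPA 2 h and vehicle entered the fit (0.81, adjusted p = 0.066). Socs2 was one of 2 members that E2 still raised at 24 h, by 0.57 (SE 0.21, adjusted p = 0.0279), a call lost in 8 alternative settings, 4 of which left out 1 array (vehicle replicate 1 or 3, or either E2 24 h array, with adjusted p up to 0.0995).

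Cish encodes the first described protein of the SOCS family, an inhibitor induced by STAT5. Its levels spanned 1.51 to 1.77 on the vehicle arrays, 1.99 to 2.10 with E2 at 2 h, 1.49 to 2.24 with BPA at 2 h and 1.84 to 2.14 with HPTE at 2 h. E2 raised it by 0.44 (SE 0.15, adjusted p = 0.0419), a call lost in 11 alternative settings, including slide as a fixed block (adjusted p = 0.0956), the one with E2 2 h replicate 1 as the single E2 array and those that left out vehicle replicate 2 or 3 or any E2 2 h array (0.39 to 0.53 over all arrays left out, adjusted p up to 0.124). The BPA change of 0.28 (adjusted p = 0.141, arrays overlapping) and the HPTE change of 0.34 (adjusted p = 0.0755) did not pass. At 24 h the levels were 1.43 and 1.59 with E2, 1.45 to 1.77 with BPA and 1.87 to 2.01 with HPTE, and the change of 0.32 with HPTE did not pass (adjusted p = 0.123), although all 3 arrays lay above vehicle.

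Stat5a encodes a transcription factor activated by prolactin and growth hormone. Its vehicle levels were 0.28, 0.22 and 0.20, with the narrowest spread among the members in vehicle. At 2 h they were 1.84, 1.54 and 1.85 with E2, 2.15, 2.49 and 1.48 with BPA and 2.61, 2.54 and 2.34 with HPTE, all above vehicle. At 24 h they were 0.84 and 0.996 with E2, 0.17, 0.07 and 0.21 with BPA and 0.38, 0.55 and 0.44 with HPTE. E2 and HPTE arrays at 24 h lay above vehicle and BPA arrays overlapped it. The 2 h change was 1.51 with E2 (SE 0.18, adjusted p = 1.89e-05), 1.81 with BPA (SE 0.18, adjusted p = 1.89e-06) and 2.27 with HPTE (SE 0.18, adjusted p = 2.1e-07). At 24 h the change was 0.68 with E2 (SE 0.20, adjusted p = 0.00759), -0.08 with BPA (adjusted p = 0.815) and 0.23 with HPTE (adjusted p = 0.362). The E2 change at 24 h missed the threshold without E2 24 h replicate 3 (0.61, adjusted p = 0.0627) and under spike-in scaling (0.72, adjusted p = 0.126).

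Stat5b encodes a close relative of Stat5a that carries growth hormone signals. Vehicle levels were 2.94, 2.53 and 2.86. The E2 2 h arrays were at 2.99, 2.96 and 2.93 and overlapped vehicle, while BPA 2 h arrays were at 3.45, 3.46 and 2.96 and HPTE 2 h arrays at 3.51, 3.54 and 3.47, all above it. BPA raised it by 0.51 (SE 0.12, adjusted p = 0.00301) and HPTE by 0.73 (SE 0.12, adjusted p = 0.000175). The BPA call was lost under spike-in scaling (adjusted p = 0.124) and with only BPA 2 h and vehicle in the fit (adjusted p = 0.0776). The E2 change was 0.18 and did not pass (adjusted p = 0.304). At 24 h E2 moved it the other way, to 2.23 and 2.08, a fall of 1.54-fold (change -0.63, SE 0.14, adjusted p = 0.000985, lost under spike-in scaling, adjusted p = 0.118, and with the mean of all probes, -0.32, adjusted p = 0.0624), while BPA and HPTE arrays (2.56 to 2.77) overlapped vehicle.

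Stat3 encodes the main transcription factor of the gp130 cytokines. Vehicle levels were 3.28, 3.15 and 2.91. At 2 h they were 3.37, 3.07 and 3.27 with E2, 3.57, 3.73 and 3.64 with BPA and 3.62, 3.85 and 3.43 with HPTE. BPA and HPTE arrays stood above vehicle and E2 arrays overlapped it. BPA raised Stat3 by 0.53 (SE 0.14, adjusted p = 0.00456) and HPTE by 0.52 (SE 0.14, adjusted p = 0.00542), and both missed the threshold under spike-in scaling (adjusted p = 0.168 and 0.0742). The E2 change was 0.12 (adjusted p = 0.567). At 24 h all changes lay between -0.01 and 0.04.

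Jak2, the kinase of the growth hormone, prolactin and erythropoietin receptors, had vehicle levels of 1.99, 2.20 and 2.07. E2 raised it at 2 h by 0.35 (SE 0.11, adjusted p = 0.0288), with arrays at 2.64, 2.19 and 2.47 that overlapped vehicle, and HPTE raised it by 0.33 (SE 0.11, adjusted p = 0.0237), with arrays at 2.44, 2.52 and 2.29. Each of these calls was lost in 9 alternative settings, among them slide as a fixed block (adjusted p = 0.172 and 0.0783). Both were lost without vehicle replicate 1 or 3, the E2 call also without E2 2 h replicate 1 or 3 (adjusted p up to 0.126) and the HPTE call also without HPTE 2 h replicate 1 or 2 (adjusted p up to 0.0894). Stat6, the transcription factor of interleukin 4 and 13, passed in no comparison with vehicle, with changes from -0.19 to 0.19 and levels from 0.78 to 1.45 over all 20 arrays. In the moderated F test over the 7 groups all 9 genes passed, against 81.4% of all probes, with adjusted p from 1.64e-08 for Socs3 to 0.0309 for Cish.

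**Figure D2:**
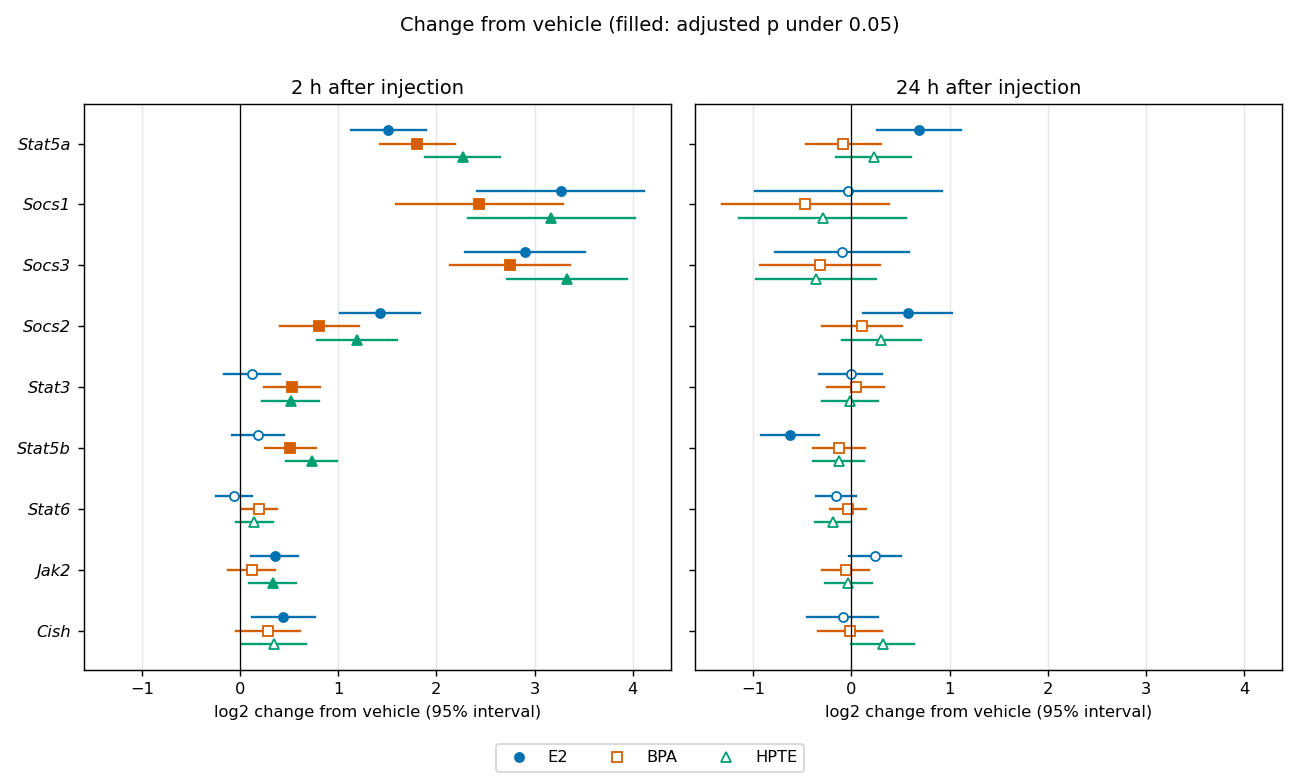
Change relative to vehicle (log2, horizontal axis, point with 95% interval, filled where called) of each of the 9 genes (vertical axis) for E2, BPA and HPTE at 2 h and 24 h. The changes of Socs1 and Socs3 at 2 h exceed 2.4 for all 3 compounds, and those at 24 h lie between -0.47 and -0.03.

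Levels at 24 h were also set against those at 2 h. With E2, 6 of 9 members were lower at 24 h than at 2 h, beside 30.1% of all probes called lower and 56.0% called in either direction. With BPA the count was 7 of 9, beside 20.2% and 48.4%, and with HPTE 8 of 9, beside 24.6% and 54.1%. No member was called higher. These comparisons share the 2 h arrays of the comparisons with vehicle. The change of Socs3 was -3.00 with E2, -3.07 with BPA and -3.69 with HPTE, and that of Socs1 was -3.30, -2.91 and -3.46. Stat5a changed by -0.82 with E2 (adjusted p = 0.00257), -1.89 with BPA and -2.04 with HPTE. Stat5b fell with every compound (-0.81, -0.64 and -0.86), and so did Socs2 (-0.85, -0.70 and -0.89). Cish fell with E2 (-0.53, adjusted p = 0.0153) and not detectably with HPTE (-0.03, adjusted p = 0.898). Jak2 fell with HPTE (-0.36, adjusted p = 0.0128). Stat3 (-0.49 with BPA and -0.53 with HPTE) and Stat6 (-0.23 and -0.33) fell with both xenoestrogens, the Stat6 call with BPA being lost in 13 of 18 alternatives, and their changes of -0.13 and -0.10 with E2 did not pass. With slide as a fixed block the calls were lost for Cish with E2 (-0.36, adjusted p = 0.118), Jak2 with HPTE (-0.40, adjusted p = 0.0858) and Stat3 with BPA (-0.41, adjusted p = 0.123) and HPTE (-0.49, adjusted p = 0.0913). Under spike-in scaling those of Stat5a, Stat5b and Socs2 with E2 were lost as well (adjusted p = 0.153, 0.0831 and 0.139).

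For Stat5a the compounds were also compared across time. The BPA level relative to E2 was 0.30 at 2 h and -0.77 at 24 h, a difference of -1.07 (SE 0.27, adjusted p = 0.00386). The HPTE level relative to E2 was 0.76 at 2 h and -0.46 at 24 h, a difference of -1.22 (SE 0.27, adjusted p = 0.00179). No other member passed this test, the nearest being Cish for HPTE against E2 (0.50, adjusted p = 0.0865). The share of all probes that passed it was not counted, so Stat5a is set apart from the other members only.

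BPA and HPTE were compared at their shared dose. In limma 0 of 9 members differed at 2 h, against 0.438% of all probes, and 1 of 9 had an unadjusted p under 0.05, against 16.2%, which was Stat5a (0.46 higher with HPTE, 95% interval 0.08 to 0.84, adjusted p = 0.216). At 24 h 0 of 9 differed, against 4.08% of all probes, and 1 of 9 had an unadjusted p under 0.05, against 21.0%, which was Cish (0.33 higher with HPTE, 95% interval 0.01 to 0.66, adjusted p = 0.229). The intervals at 2 h were wide for the members that moved most, from -0.11 to 1.59 around 0.74 for Socs1 and from -0.03 to 1.19 around 0.58 for Socs3. Without BPA 2 h replicate 3 the HPTE minus BPA differences at 2 h were 0.01 for Socs1, 0.06 for Socs3, 0.18 for Stat5a, 0.07 for Socs2 and 0.05 for Stat5b, and none was called. Without BPA 2 h replicate 2 Stat5a was called (0.69, adjusted p = 0.0426). A missed threshold does not show that the compounds act alike.

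Set beside E2, given at another dose, BPA differed in 2 of 9 members at 2 h (19.0% of all probes were called). Stat3 was 0.41 higher (adjusted p = 0.0471) and Socs2 0.62 lower (adjusted p = 0.0352) with BPA, and these calls were lost in 12 and 10 alternative settings. The Stat3 call was lost without any 1 of the 6 arrays of these groups (adjusted p up to 0.159), and that of Socs2 without any E2 2 h array or BPA 2 h replicate 3 (-0.30 without the latter). HPTE differed in 2 of 9 (16.6% of all probes), with Stat5a 0.76 higher (SE 0.18, adjusted p = 0.00999) and Stat5b 0.55 higher (SE 0.12, adjusted p = 0.0076). With E2 2 h replicate 1, the E2 array without raised pancreas markers, as the single E2 2 h array, both were similar in size (0.66 and 0.52) and neither passed (adjusted p = 0.132 and 0.0997). The Stat5b call was also lost with slide as a fixed block (adjusted p = 0.0523), and both under spike-in scaling (adjusted p = 0.0825 and 0.0853). At 24 h BPA differed in 2 of 9 (57.9% of all probes), with Stat5a 0.77 lower (adjusted p = 0.00419) and Stat5b 0.50 higher (adjusted p = 0.00621), and HPTE in 1 of 9 (48.9%), with Stat5b 0.49 higher (adjusted p = 0.00775). The Stat5b differences at 24 h were 0.42 for each compound without E2 24 h replicate 3 and did not pass (adjusted p = 0.066 and 0.081). These Stat5b calls were lost without scaling (adjusted p = 0.131 and 0.155) and under spike-in scaling (adjusted p = 0.419 and 0.737). The HPTE call was also lost with the mean of all probes (0.31, adjusted p = 0.0846). The dimmest Stat5b probe had the opposite sign, with -0.41 for BPA (adjusted p = 0.091) and -0.53 for HPTE (adjusted p = 0.0383). The other Stat5b probe had the sign of the reported one (1.12 and 0.96).

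**Figure D3:**
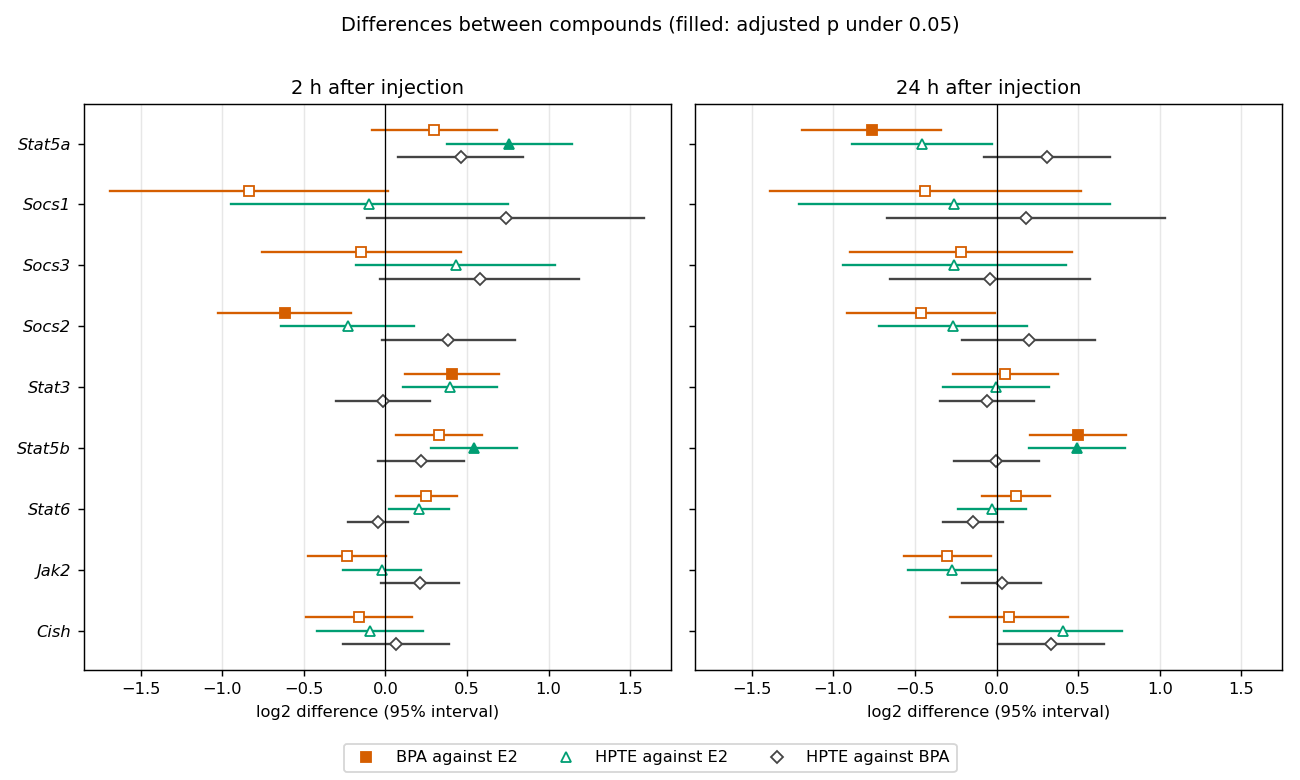
Differences between compounds at the same time (log2, horizontal axis, point with 95% interval, filled where called) for the 9 genes (vertical axis). The HPTE against BPA interval for Socs1 at 2 h runs from -0.11 to 1.59, and HPTE against E2 at 2 h lies above 0 for Stat5a and Stat5b.

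Of the 5 members with more than 1 probe, Stat3, Stat5b, Stat6, Jak2 and Socs2, several had probes that disagreed. Probe positions are those of the array files on mm7. For Stat3 the reported probe (chromosome 11, 100997323 to 100997382) gave -0.01 with E2 at 24 h, while the dimmer probe (100994187 to 100994246) gave -0.92 (SE 0.09, adjusted p = 5.88e-07), and its 2 h changes were 1.05 with BPA and 0.94 with HPTE. Against E2 the dimmer Stat3 probe was higher at 2 h with BPA (0.93) and HPTE (0.82) and at 24 h (0.95 and 0.81). All of these were called in limma (adjusted p up to 5.93e-05). The reported Stat3 probe gave 0.41 and 0.40 at 2 h and 0.05 and -0.005 at 24 h. The dimmer Stat3 probe reads the strand opposite to the Stat5a probe (100993869 to 100993928), with 258 bases between them. For Stat5b the reported probe (100889824 to 100889883) and the one at 100930445 to 100930504 fell with E2 at 24 h (-0.63 and -0.99), while the dimmest rose (0.66, SE 0.20, adjusted p = 0.00874). With BPA at 2 h the Stat5b probes gave 0.51, 0.04 (adjusted p = 0.839) and 1.15. For Socs2 the other probe rose less at 2 h, by 0.51 with E2 and 0.47 with HPTE, and not detectably with BPA (0.23, adjusted p = 0.28), and it gave -0.33 with E2 at 24 h (adjusted p = 0.152) where the reported probe gave 0.57. The dimmest Stat6 probe fell at 24 h with E2 (-0.52) and HPTE (-0.27), unlike the reported one. The second Jak2 probe passed in no comparison with vehicle. The direction for Stat5b and Socs2 with E2 at 24 h depends on the probe in sign, as does whether Stat3 passed.

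**Figure D4:**
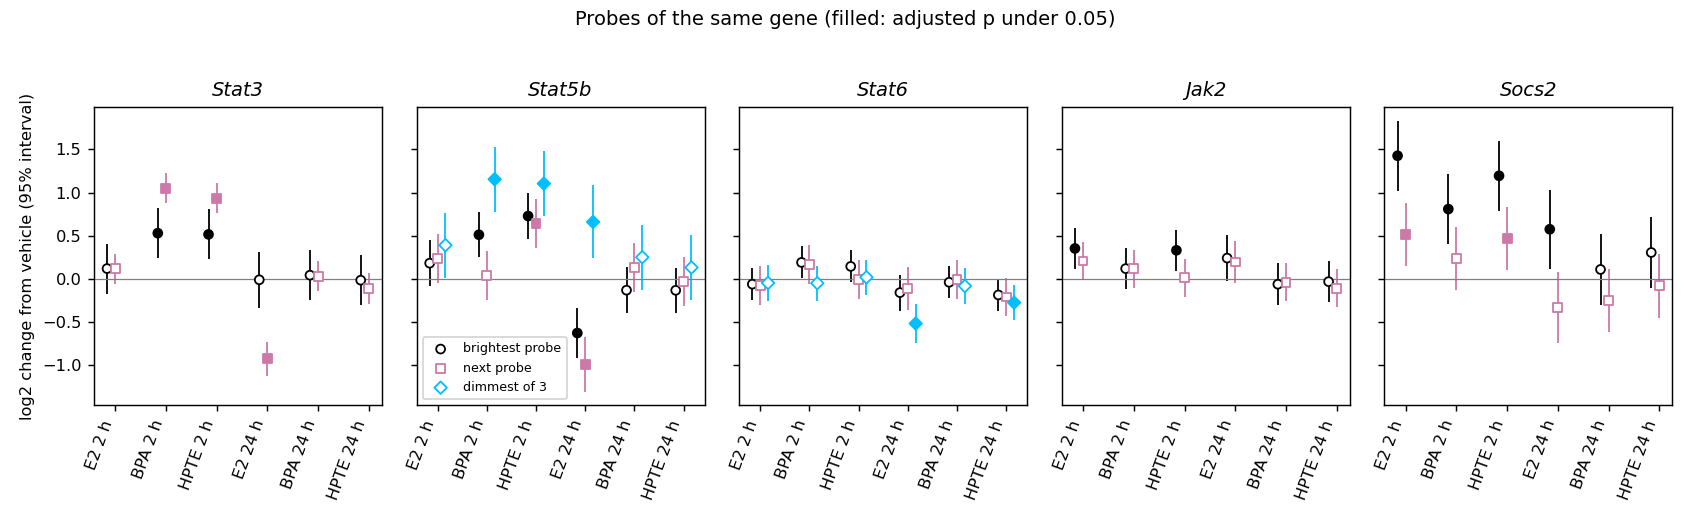
Change relative to vehicle (log2, vertical axis, with 95% interval, filled where called) of every probe of the 5 genes with more than 1 probe, for each compound and time (horizontal axis). The probes of Stat5b with E2 at 24 h lie on both sides of 0, from -0.99 to 0.66.

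Likeness of patterns was measured as Pearson's r over the 20 arrays, as a description, since treatment groups and array scaling are shared by all probes. Socs1 and Socs3 followed each other at r of 0.986, and Stat5a followed Socs3 at 0.953 and Socs1 at 0.936. Among 11461 other named genes that passed the F test, those closest to Socs1 were Nrip1 (0.994), Cebpb (0.993) and Cmkor1 (0.992), and those closest to Socs3 were Zxdc (0.992), Nfil3 (0.992) and Vps37b (0.991). Stat5a was closest to Tmcc3 (0.989), Aqp5 (0.988) and Ptges (0.987), and Stat5b to Dgkd (0.986), Wt1 (0.979) and Aff1 (0.971). Socs2 was closest to Rgs3 (0.967), Otub2 (0.941) and Nfkbia (0.938), and Stat3 to Ccar1 (0.927), Lpgat1 (0.896) and Top1 (0.886). Stat6 was closest to Aebp1 (0.92), Rai17 (0.876) and Arih2 (0.87), and Jak2 to Pfdn4 (0.861), Ccdc43 (0.859) and Pus3 (0.857). For Cish no gene exceeded the 0.769 of Palld, followed by Mrvi1 (0.758) and Arg2 (0.753).

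The rest of the pathway was followed in a list of 81 ligands, receptors, kinases, inhibitors and targets, of which 80 matched the array (Lif did not) and 76 were tested. With E2 at 2 h 18 were higher and 8 lower, with BPA 23 and 13, and with HPTE 20 and 21. At 24 h the counts were 16 higher and 22 lower with E2, 3 and 6 with BPA and 6 and 12 with HPTE. In all 34.2%, 47.4% and 53.9% of the list were called at 2 h with E2, BPA and HPTE, beside 28.1%, 49.4% and 48.1% of all probes, and 50%, 11.8% and 23.7% at 24 h, beside 63.8%, 13.1% and 34.0%. The shares at 2 h and that of BPA at 24 h were near those over all probes, and those of E2 and HPTE at 24 h were below them. Without scaling between arrays the splits were 12 and 15, 23 and 8, 21 and 9, 12 and 17, 0 and 5, and 0 and 10 in the same order, so the share of higher calls depends on scaling. The median change over the 76 genes at 2 h was 0.03 with E2, 0.10 with BPA and -0.09 with HPTE, beside -0.06, -0.10 and -0.09 over all probes.

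Among 16 target genes, 10 rose with E2 at 2 h, 12 with BPA and 9 with HPTE, while 0, 1 and 1 fell. The targets called higher were thus 62.5%, 75% and 56.2% of the list, beside 11.1%, 19.3% and 19.9% of all probes, while 17.0%, 30.2% and 28.2% of all probes were called lower. The targets were listed with earlier results of these data known, so these shares describe the chosen genes and do not test targets as a set. Fos, an AP-1 subunit, was at -2.58, -2.54 and -2.40 on vehicle arrays and at 2.66, 2.92 and 3.04 on E2 2 h arrays. It increased by 5.38 with E2, 4.28 with BPA and 4.67 with HPTE. Cdkn1a, the cell cycle inhibitor p21, increased by 2.47, 2.43 and 3.58 and Junb, another AP-1 subunit, by 2.14, 2.27 and 2.02. The BPA 2 h array that was low for Socs1 was also the lowest of its group for Fos (0.97, beside 2.26 and 2.07). The genes that fell at 2 h were Ccnd1, or cyclin D1, with BPA (-0.48, arrays overlapping) and Lcn2, or lipocalin 2, with HPTE (-0.50). At 24 h with E2 8 targets rose and 3 fell, and the 68.8% called lay near the 63.8% over all probes. Lcn2 rose by 4.36, Timp1, an inhibitor of metalloproteinases, by 2.42 and Igf1, the growth factor, by 2.10, while Mcl1 (-0.49), Bcl6 (-0.99) and the kinase Pim1 (-1.22) fell. At 24 h BPA lowered Ccnd1 (-0.71) and Myc (-0.72). HPTE raised Lcn2 (0.69) and lowered Cebpd (-0.48), Ccnd1 (-0.59) and Bcl6 (-0.66).

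Of 16 ligands, 4 rose and 2 fell with E2 at 2 h, 3 and 4 with BPA and 3 and 6 with HPTE. The shares called, 37.5%, 43.8% and 56.2%, were near those over all probes (28.1%, 49.4% and 48.1%), each ligand being 1 of 16. Il11, a gp130 cytokine, rose by 1.81, 1.86 and 2.77. Il6, the prototype of that family, lay too near background on the vehicle arrays to be measured there. It was called higher at 2 h in limma with BPA (adjusted p = 7.8e-06) and HPTE (adjusted p = 0.00114). For the fold, each vehicle level was raised to the lowest signal of any probe well above background on that array. The increase was then 3.01-fold with BPA and 1.27-fold with HPTE. That limit is not specific to the Il6 probe, so these folds are estimates and not bounds. With E2 Il6 was called (adjusted p = 0.00736) with 1 of 3 arrays above background, and the estimate of 1.09-fold is not a bound either. Csf3 rose with E2 (1.21), and Cntf rose by 0.26, 0.53 and 0.33. Tslp, an epithelial cytokine, fell with all 3 (-2.11, -1.97 and -2.42), and Il15, which sustains natural killer cells, fell with BPA (-1.41) and HPTE (-1.66). Il7 also fell with both (-0.82 and -0.90), as did Ctf1 (-0.72 and -0.43), while Csf2 fell with E2 (-0.61) and HPTE (-0.70) and Ifng with HPTE (-0.91). At 24 h E2 raised Cntf (1.05) and Csf3 (0.66) and lowered 6 ligands, including Ifng (-1.51) and Tslp (-1.24). Csf2, another of the 6 (adjusted p = 0.000599), was not well above background on the E2 24 h arrays. Its decrease, estimated in the same way, was 2.06-fold and is not a bound. The 50% of ligands called lay below the 63.8% of all probes called, and 37.6% of all probes were called lower. Il6 with BPA (adjusted p = 0.0187) and Csf3 with HPTE (0.48) were the only ligands called at 24 h with those compounds. Of the 3 BPA 24 h arrays, 1 had Il6 well above background, so the estimate of 1.06-fold is not a bound.

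Of 26 receptors at 2 h, 1 rose and 3 fell with E2, 3 and 5 with BPA and 3 and 10 with HPTE. These were 15.4%, 30.8% and 50% of the receptors, below the shares over all probes with E2 and BPA (28.1% and 49.4%) and near it with HPTE (48.1%). Il15ra, which presents interleukin 15, fell with all 3 (-0.49, -1.02 and -1.16). E2 raised Il4ra (0.95) and lowered Ifnar2 (-0.37) and Epor (-0.49) as well. HPTE raised Cntfr (1.36) and Il11ra1 (0.40), among others. BPA raised Csf3r (1.55), Il10ra (1.29, arrays overlapping) and Il2rg (0.91), and lowered Ifnar2 (-0.24), Ifnar1 (-0.28), Ghr (-0.36) and Lepr (-0.82). Csf3r, Il10ra and Il2rg are expressed on leukocytes, and the summed level of 4 leukocyte markers was 34.3, 11.6 and 7.33 on the BPA 2 h arrays, beside 6.95 to 7.82 in vehicle, with 3 of 4 markers higher. That of 5 macrophage markers was 85.2, 18.9 and 10.5, beside 8.59 to 10.1, with 3 of 5 higher, and the part of these cells in the receptor values was not tested. At 24 h E2 raised Il13ra1 (0.73), Ifngr2 (0.65) and Il11ra1 (0.25) and lowered 7 receptors, most of all the leptin receptor Lepr (-3.16), Il7r (-2.23) and Csf2ra (-1.29). The 38.5% of receptors called lay below the 63.8% of all probes called, and 37.6% of all probes were called lower. On the E2 24 h arrays the leukocyte marker sums were 4.12 and 4.98 (vehicle 6.95 to 7.82, 1 of 4 markers lower) and those of 4 T cell markers were 0.867 and 0.966 (vehicle 1.37 to 1.65, 2 of 4 lower). Sums of 4 adipocyte markers were 15.9 and 20 (vehicle 40.0 to 90.2, 3 of 4 lower), and the part of these cells in the receptor values was not tested. BPA at 24 h raised Il2rg (0.98). Leukocyte marker sums on those arrays were 9.79 to 11.5 (0 of 4 markers called) and macrophage sums 16.6 to 20.9 (3 of 5 markers higher). HPTE at 24 h raised Il2rg (0.66), Il11ra1 (0.26) and Ifnar2 (0.22) and lowered Lepr (-0.92), Prlr (-0.77), Il7r (-0.45) and Csf2ra (-0.40). Leukocyte marker sums on the HPTE 24 h arrays were 6.31 to 11 (0 of 4 markers called). Macrophage sums there were 10.96 to 22.15 (0 of 5 called), and the part of these cells was not tested.

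Among the other inhibitors and pathway proteins, the phosphatase genes Ptpn1 and Ptpn2 rose at 2 h with E2 (0.85 and 0.29), BPA (1.47 and 0.62) and HPTE (1.60 and 0.62). Pias1 rose with BPA (0.30) and HPTE (0.39) and Pias3 fell with both (-0.53 and -0.68). Ptpn6, a phosphatase of blood cells, rose with BPA (1.39, arrays overlapping), beside the leukocyte values above. At 24 h E2 raised Pias4 (0.62, arrays overlapping) and Ptpn2 (0.43) and lowered Pias1 (-0.76), and BPA and HPTE both lowered Ptpn11 (-0.24 and -0.24). Socs6 rose at 2 h with E2, BPA and HPTE (0.35, 0.38 and 0.53) and was lower at 24 h with E2 (-0.21) and HPTE (-0.27), Socs4 rose with HPTE at 2 h (0.35), and Socs5 fell with E2 at 24 h (-0.38). Tyk2, a kinase of interferon receptors, rose at 24 h with BPA (0.60) and HPTE (0.53), and Stat2 rose with E2 at 24 h (0.54).

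Socs7, Jak3 and Stat4 were lower than vehicle in most comparisons. Socs7 fell in all 6 (changes from -2.36 to -1.20), from vehicle levels of -2.94, -4.08 and -4.19, Jak3 fell in all 6 (-1.04 to -0.55), and Stat4 fell in 5 of 6 (-1.98 to -0.74). For each of the 3 genes vehicle replicate 1 was the highest vehicle array, and it also had the highest sperm cell marker sum (98.4, beside 32.3 and 30.0). The part of those transcripts in the 3 decreases was not tested.

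**Figure D5:**
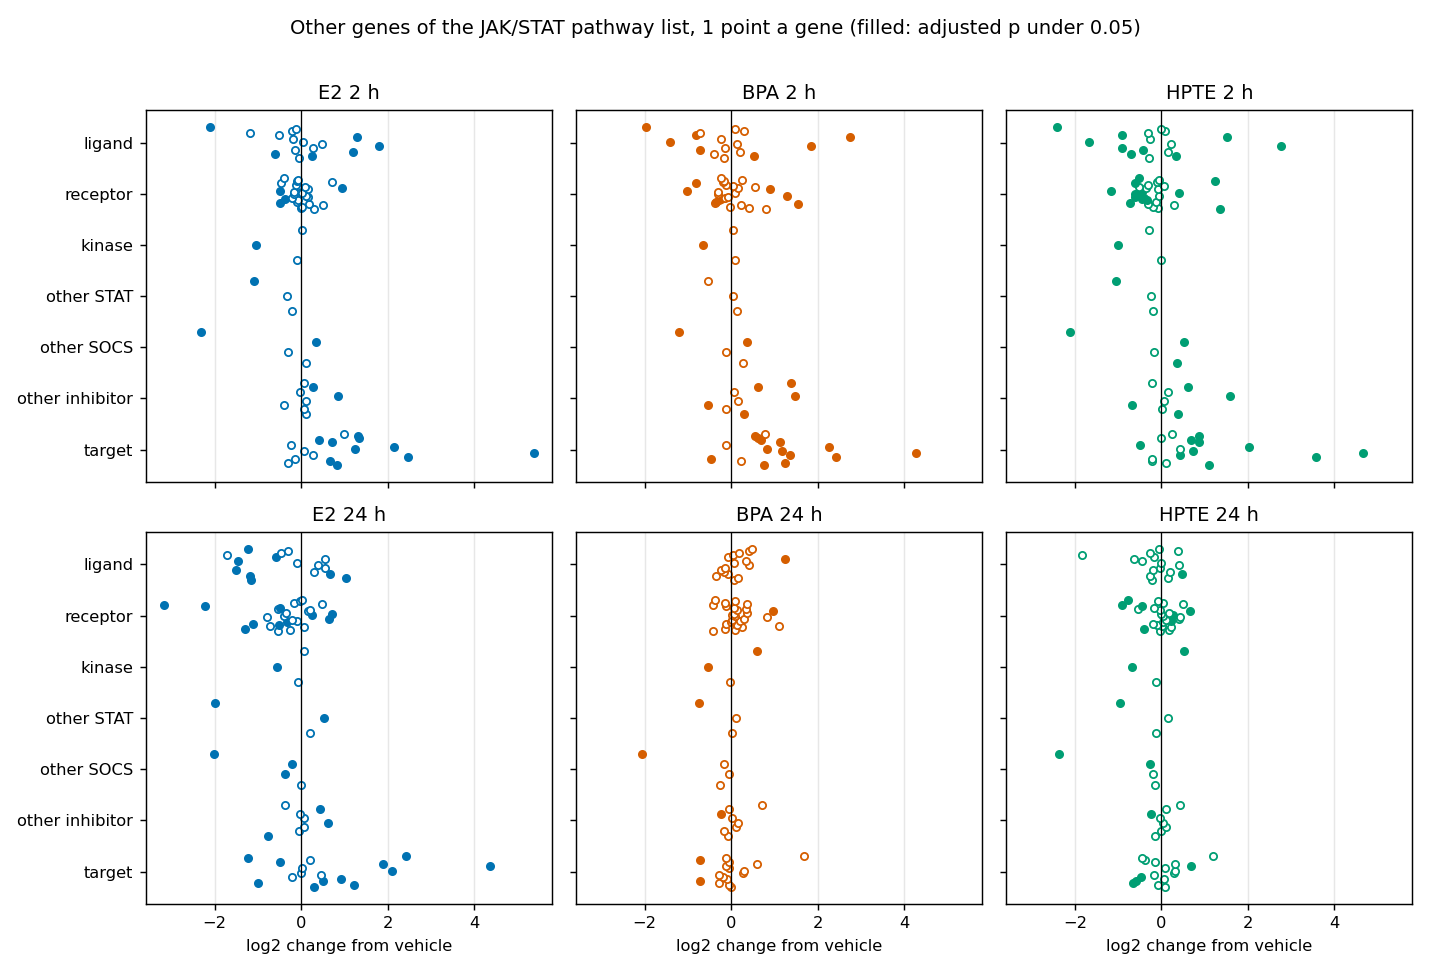
Change relative to vehicle (log2, horizontal axis) of the tested genes of the wider pathway list at 2 h and 24 h with E2, BPA and HPTE, grouped by role (vertical axis), with 1 point per gene, filled where called. The largest increase among the targets at 2 h is that of Fos (5.38 with E2), and Lcn2 (4.36) leads with E2 at 24 h.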

How the data were processed

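Deposited Agilent 1-colour scanner files (20 arrays) held the intensity of each spot, which the authors extracted, background-subtracted and flagged with Feature Extraction 9.5, per the file headers. The series value table equalled these intensities. Spots of 1 probe were averaged without control (1639 of 45018) and outlying spots, log2 taken and the 75th percentile of each array subtracted. A probe was tested (32456 of 41174) if some group had it well above background on each of its arrays and no more than 2 arrays lacked a value. Tests used limma 3.58.1 in R 4.3.3, in 1 model of 7 group means fitted to all 20 arrays, with p two-sided and Benjamini-Hochberg adjustment within each comparison. E2 24 h has 2 arrays, and its spread was pooled with the other groups. The number of arrays limits the precision, and intervals cover 95%. The model was tested on simulated data. Groups came from the labels, where the tags for treatment and time are exchanged. The pathway and marker lists named the genes to follow: all 9 members, the 3 largest called increases and decreases of the pathway list per comparison with vehicle, and any called gene in a role with 5 or fewer calls. For likeness, the 3 most correlated named genes per member are given. Cell markers were summed as multiples of the 75th percentile. Members, lists and tests were chosen with earlier results of these data known. Gene names are those of the array, probe positions are on mm7, and promoters and gene spans are RefSeq on GRCm38.p6. Alternatives covered scaling, background correction, dim probes, slide, replicate number, array weights, probe choice, samples in the model and leaving out each array. A receptor gene of the pathway list is not reported here.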

Additional observations from a re-analysis of the deposited data

Results flagged for a closer look

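Stat5a was singled out among the members because the difference between compounds changed with time. The share of all probes that passed this test was not counted, so Stat5a is set apart from the other members only. The unadjusted p in limma, 0.00129 for BPA against E2 and 0.000415 for HPTE against E2, were not far below the adjusted values. Under the Benjamini-Hochberg adjustment this means that low p were common among all probes in this test. The BPA minus E2 difference changed by -1.07 on the log2 scale from 2 h to 24 h (SE 0.27, adjusted p = 0.00386 in limma), and over 22 alternatives this value ran from -1.50 to -0.84 with adjusted p up to 0.049. The HPTE minus E2 difference changed by -1.22 (SE 0.27, adjusted p = 0.00179), with a range from -1.87 to -1.10 and adjusted p up to 0.0123. At 2 h Stat5a stood higher with HPTE (2.34 to 2.61) than with E2 (1.54 to 1.85) on every array, and at 24 h it stood lower with HPTE (0.38 to 0.55) than with E2 (0.84 and 0.996). BPA arrays overlapped those of E2 at 2 h and lay below them at 24 h (0.07 to 0.21). E2 was given at another dose, its 24 h group has 2 arrays, and the part of either in these differences was not tested.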

How the results depend on the processing

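Over 1953 member values under other settings, 1824 kept their side of the threshold, 76 lost the call, 52 gained one and 1 reversed. Over 1080 values with 1 array left out the counts were 1030, 37, 12 and 1. A value was counted as reversed if its sign changed and it was called in the report or in the alternative. Sign changes of values called in neither are among those that kept their side. Socs1, Socs3 and Stat5a passed at 2 h with all 3 compounds in every alternative. The reversed values were Stat3, HPTE against E2 at 24 h, which was 0.40 with the mean of all probes of a gene (adjusted p = 0.00286), and Socs3, BPA against E2 at 2 h, which was 0.37 without BPA 2 h replicate 3 (adjusted p = 0.0341). Of 257 counts under other settings, 47 moved by more than 1.5 times. Spike-in scaling gave member counts of 3 for BPA 2 h (6 in the report), 0 for E2 24 h (3), 2 for E2 24 h against 2 h (6), 4 for BPA 24 h against 2 h (7) and 0 for BPA or HPTE against E2 at either time, and pathway counts of 13, 19 and 18 at 2 h for E2, BPA and HPTE (26, 36 and 41) and 18, 1 and 6 at 24 h (38, 9 and 18). Without scaling the member counts were 4 for BPA and 5 for HPTE against E2 at 2 h, 1 for BPA against E2 at 24 h and 3 for E2 24 h against 2 h, and the pathway counts 5 and 10 for BPA and HPTE at 24 h. Scaling moved the median over all probes, from -0.15 for E2 24 h in the report to a range of -0.29 (E2 2 h) to 0.05 (HPTE 2 h) without scaling and of -0.36 (HPTE 24 h) to 0.15 (HPTE 2 h) with spike-ins, and the share of calls that were higher ran from 38.8% to 43.9% as reported, 46.9% to 52.1% after quantile normalization, 11.5% to 55.8% without scaling and 8.85% to 56.2% with spike-ins. All member calls at 2 h against vehicle were increases under each of these. Quantile normalization gave 2 for HPTE against E2 at 24 h (1), and normexp with quantile normalization gave 2 there and 4 for BPA against E2 at 2 h (2). For BPA against E2 at 2 h the count was 1 with no filter, 1 with slide as a fixed block, 1 with the mean of all probes and 0 with only the groups compared. With slide as a fixed block HPTE against E2 at 2 h gave 1 and the pathway counts at 24 h were 2 for BPA and 9 for HPTE. Array weights gave 4 for HPTE against E2 at 2 h (2), 4 and 3 for BPA and HPTE against E2 at 24 h, 1 for HPTE 24 h, 1 for HPTE against BPA at 24 h and 14 pathway genes for BPA 24 h. The mean of all probes gave 5 and 2 for BPA and HPTE against E2 at 24 h and 1 for HPTE 24 h. With only the groups compared these counts were 4 and 3, and the pathway count for BPA 2 h was 23. With E2 2 h replicate 1 as the single E2 2 h array, chosen after seeing the data, the counts were 15 pathway genes for E2 2 h and 0 members for BPA or HPTE against E2 at 2 h. Same-numbered arrays did not deviate together in the median (r = -0.05 over 57 pairs, -0.01 over 114 others), and no pairing by number was used. Values for the same number ran from -0.361 to 0.333. With 2 or 3 arrays in a group these correlations cannot exclude a pairing. The replicate block gave 1 for BPA against E2 at 2 h and 2 for HPTE against E2 at 24 h, with every other count within 1.5 times. Arrays of the same slide deviated together slightly (median r = 0.108 over 25 pairs, highest 0.513, beside -0.0327 over 146 others). The model of the report has no slide term. Over the arrays left out in turn, that Socs3 value ran from -0.44 to 0.37. Leaving out 1 array gave counts of 0 to 3 for BPA against E2 at 2 h, 1 to 2 for BPA and 0 to 1 for HPTE against E2 at 24 h, 1 to 3 for E2 24 h (the lows at 24 h without E2 24 h replicate 3), 0 to 1 for HPTE against BPA at 2 h (1 without BPA 2 h replicate 2) and 2 to 9 pathway genes for BPA 24 h (3 without vehicle replicate 1 and 2 without BPA 24 h replicate 1 or 3). The cause of these shifts was not tested. Levels of probes near background carry the widest relative error, and no member probe was near it.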
